A study of Mus musculus with 4 samples.

Results

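The genes described here encode the integrins, the main receptors through which cells hold on to the extracellular matrix, and 6 proteins of the focal adhesion, the plaque that ties clustered integrins to actin. They are 32 genes of the 21627 protein-coding genes on the autosomes and the X chromosome: 18 integrin alpha chains, 8 integrin beta chains, and Vcl, Tln1, Pxn, Zyx, Ilk and Ptk2. Open chromatin was read from peaks over each gene body and within 20 kb of it, on GRCm38. Overlapping peaks of the 4 deposited lists (1 bp or more) formed 256632 merged regions, and 689 of these lay in the windows of the 32 genes. No region belonged to 2 of the genes, and 31 genes had at least 1 region. Itgax had none.

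Each of 4 mouse cell populations was assayed for open chromatin by ATAC-seq (a transposase cuts and tags DNA that it can reach), with 1 library per population and 50000 cells in each library. Mouse embryonic fibroblasts (MEF) and induced pluripotent stem cells (iPSC) carried the A12 label, an Mbd3 flox/- genotype. Embryonic stem cells (ESC) were of the v6.5 line. The intermediate came from a culture on its way from fibroblasts to neural stem cells, a trans-differentiation driven by OSKM (Oct4, Sox2, Klf4 and Myc). Its strain was B6/129, from a cross of a Rosa26-TdTomato B6 female with a Col1a-OSKM 129 male. It carried a Nanog-CreER reporter, was exposed to doxycycline and 4-hydroxytamoxifen (4OHT) with a JAK1 inhibitor at 0.5 µM, and was sorted for tdTomato. Doxycycline drives OSKM from the Col1a locus, and the sort keeps cells in which a Nanog-driven, tamoxifen-activated Cre has recombined the reporter. Its title gives day 9 and its source field gives day 6. The strain label therefore differed between the intermediate and each of the other libraries, and strain and cell state cannot be told apart there. ESC also differed in line from MEF and iPSC, so line and cell state cannot be told apart in comparisons with ESC. No unsorted cells of the OSKM culture were analysed here.

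An integrin is a heterodimer of an alpha and a beta chain, and the pairing decides whether it binds collagen, laminin, the RGD motif of fibronectin and vitronectin, or counter-receptors on other cells. The beta tail recruits talin, which activates the receptor and binds vinculin, while paxillin, zyxin, integrin-linked kinase and focal adhesion kinase carry scaffold and signalling functions of the plaque. Fibroblasts on culture plastic build large focal adhesions, and reprogramming to pluripotency involves a change from mesenchymal to epithelial contacts.

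The lists held 129533 to 157212 peaks and covered 65.4 to 74.1 Mb, with MEF highest on both counts. Peak heights are whole-number signals that nothing in the files scales to library size, and the number of reads behind each list is unknown. Heights of different libraries are therefore printed side by side as a description and were not compared. Between 36.5% and 49.0% of the peaks in a list began at most 10 bp after the previous one, so that a wide open stretch is often listed as several sub-peaks, and counts of regions are given below also after joining such sub-peaks. Each group had 1 library, so nothing could be checked over replicates or tested. In a bulk library the share of cells with an open site and the degree of opening per cell cannot be told apart. Peaks at gene ends were set against marker lists. Of all coding genes, 62.3% to 67.2% had such a peak in a given library. All 8 fibroblast markers had one in MEF, against 3 in the intermediate, 4 for iPSC and 6 for ESC. Of 10 pluripotency markers 1 had one for MEF, 7 for the intermediate, 10 for iPSC and 8 for ESC, and of 7 epithelial markers 1 had one in MEF and 7 in every other library. Pou5f1, which encodes Oct4, had no end peak in the intermediate or in ESC.

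The promoters of the integrin and plaque genes fell along a range of CpG content. RefSeq promoter sequence (GRCm38.p6, from 250 bases before to 50 bases after a start) was at hand for 22 of the 32 genes in 25 windows. The 15 windows with a peak within 1 kb of the start in every library held 10 to 37 CpG dinucleotides, with a median of 20. The highest count, 37, was at a start of the plaque gene Ilk. The 6 windows without such a peak in any library held 5 to 12, with a median of 6, and the 4 windows with a peak in 1 to 3 lists had a median of 5. Over all 21044 windows of coding genes the medians were 22 with a peak in all 4 lists and 2 with none, in the same order. The following sequences, the 250 bases before the start read 5′ to 3′ on the coding strand with CpG dinucleotides in capitals, show this range. Only Itgb7 comes from the rule for genes whose end peak was lost in the intermediate, and the others were chosen after their values were seen. Itgb1 lies at chr8:128685404-128685653 on the plus strand, Itgav at chr2:83724147-83724396 (plus), Itga11 at chr9:62677605-62677854 (plus), Itgb7 at chr15:102231936-102232185 (minus), Itgam at chr7:128062390-128062639 (plus) and Itgax at chr7:128129300-128129549 (plus).
Itgb1: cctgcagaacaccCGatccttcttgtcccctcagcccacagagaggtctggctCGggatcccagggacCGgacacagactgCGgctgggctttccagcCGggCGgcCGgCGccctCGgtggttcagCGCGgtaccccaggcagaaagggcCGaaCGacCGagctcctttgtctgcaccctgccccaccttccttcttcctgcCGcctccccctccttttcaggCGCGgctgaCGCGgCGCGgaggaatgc
Itgav: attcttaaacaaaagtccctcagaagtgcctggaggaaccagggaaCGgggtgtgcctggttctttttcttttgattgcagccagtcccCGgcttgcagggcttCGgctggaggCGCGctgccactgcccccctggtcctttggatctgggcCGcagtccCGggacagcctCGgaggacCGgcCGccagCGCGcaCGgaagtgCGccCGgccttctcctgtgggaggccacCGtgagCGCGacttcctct
Itga11: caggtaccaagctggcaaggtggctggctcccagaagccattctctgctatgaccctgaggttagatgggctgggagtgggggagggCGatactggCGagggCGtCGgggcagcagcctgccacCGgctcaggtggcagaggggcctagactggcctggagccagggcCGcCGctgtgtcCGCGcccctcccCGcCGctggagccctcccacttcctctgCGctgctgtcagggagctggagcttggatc
Itgb7: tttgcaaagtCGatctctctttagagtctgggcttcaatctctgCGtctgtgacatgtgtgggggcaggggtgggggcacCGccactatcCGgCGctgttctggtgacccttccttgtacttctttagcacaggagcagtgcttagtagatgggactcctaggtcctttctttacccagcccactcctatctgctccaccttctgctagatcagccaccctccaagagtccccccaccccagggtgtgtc
Itgam: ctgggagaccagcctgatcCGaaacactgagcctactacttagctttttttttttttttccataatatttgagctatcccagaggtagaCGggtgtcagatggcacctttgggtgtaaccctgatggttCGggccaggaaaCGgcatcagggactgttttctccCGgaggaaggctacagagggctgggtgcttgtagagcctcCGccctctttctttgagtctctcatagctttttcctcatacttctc
Itgax: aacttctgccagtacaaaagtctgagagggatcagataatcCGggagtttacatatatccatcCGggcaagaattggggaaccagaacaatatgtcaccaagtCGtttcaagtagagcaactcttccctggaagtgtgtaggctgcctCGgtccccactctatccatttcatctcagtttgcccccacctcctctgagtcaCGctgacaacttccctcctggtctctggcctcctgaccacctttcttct

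Itgb1, the beta chain shared by the collagen, laminin and fibronectin receptors, has 21 CpG in these bases, and a peak overlapped them in every library, with heights of 179 for MEF, 298 for the intermediate, 321 for iPSC and 242 for ESC. Itgav has 18 CpG and overlapping peaks of 116, 131, 137 and 116 in the same order of libraries. Itga11, a collagen receptor chain of fibroblasts, has 12 CpG, and only an ESC peak of height 14 overlapped its sequence. Itgb7, a chain of lymphocyte integrins, has 5 CpG and was overlapped by a peak of 34 in the intermediate and 53 in ESC. Itgam and Itgax, alpha chains of myeloid cells, have 6 and 5 CpG and no overlapping peak in any list.

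**Figure D1:**
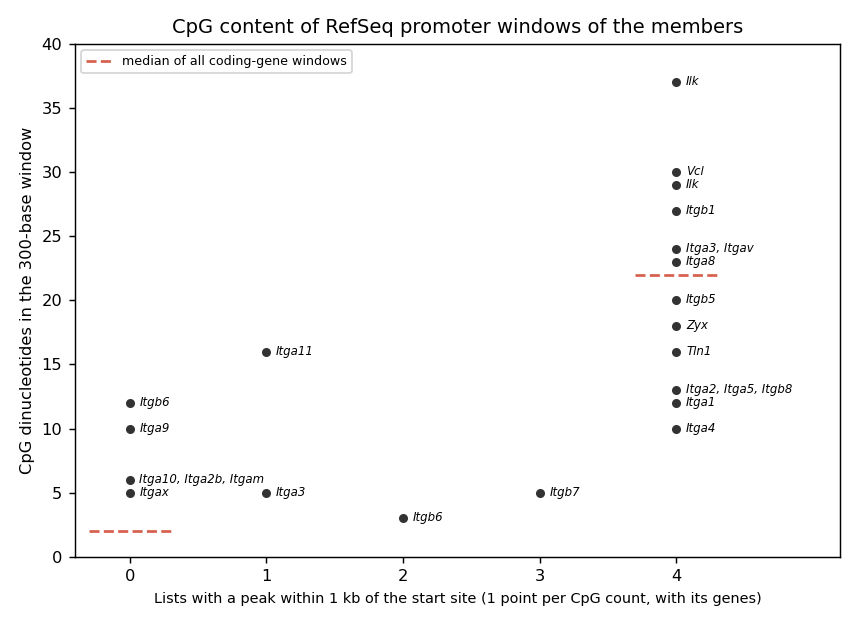
CpG dinucleotides in each 300-base RefSeq promoter window (vertical axis) against the number of lists with a peak within 1 kb of the start site (horizontal axis). Each point is a CpG count found in 1 or more windows and is labelled with their genes, and a gene with several starts appears at several points. Dashed lines are the medians of all coding-gene windows with a peak in 0 lists (2) and in 4 lists (22). The windows with a peak in 4 lists lie between 10 and 37 CpG.

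The promoters of 2 plaque genes and 1 integrin are shown for the CArG box, the rarest of the motifs searched, and for AP-1, together with other matches. Capitals mark matches on either strand to the CArG box, which serum response factor binds, and to GGGCGG (Sp/Klf) in Vcl at chr14:20929148-20929397 (plus), to TGANTCA (AP-1) and GGGCGG in Zyx at chr6:42349578-42349827 (plus), and to the CArG box and ATGCAAA (Oct) at the second listed start of Itgb6, chr2:60673694-60673943 (minus). These were chosen after the search.
Vcl: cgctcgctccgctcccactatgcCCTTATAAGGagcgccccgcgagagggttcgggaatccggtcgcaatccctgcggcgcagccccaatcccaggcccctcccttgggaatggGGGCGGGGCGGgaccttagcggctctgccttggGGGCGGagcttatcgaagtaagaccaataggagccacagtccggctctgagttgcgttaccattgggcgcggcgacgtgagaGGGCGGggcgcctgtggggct
Zyx: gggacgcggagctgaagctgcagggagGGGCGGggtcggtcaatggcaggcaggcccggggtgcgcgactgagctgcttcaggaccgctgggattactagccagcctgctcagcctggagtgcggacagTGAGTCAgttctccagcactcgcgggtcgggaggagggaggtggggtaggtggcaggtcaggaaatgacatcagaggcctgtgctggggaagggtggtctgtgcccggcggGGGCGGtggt
Itgb6: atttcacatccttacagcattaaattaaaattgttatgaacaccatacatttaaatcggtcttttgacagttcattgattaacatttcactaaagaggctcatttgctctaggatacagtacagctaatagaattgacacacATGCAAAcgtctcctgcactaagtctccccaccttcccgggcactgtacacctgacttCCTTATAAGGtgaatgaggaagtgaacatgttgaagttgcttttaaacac

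The Vcl sequence holds 1 CArG box and 4 GGGCGG matches, of which a pair overlap by a base, and peaks of 274, 299, 350 and 250 lay over it in MEF, the intermediate, iPSC and ESC. The Zyx sequence holds 1 AP-1 match and 2 GGGCGG matches under peaks of 503, 242, 411 and 251. The Itgb6 sequence holds 1 CArG box and 1 Oct match, and a peak of 26 in the intermediate alone overlapped it. Over the 25 windows the CArG box was found in 2, against 1.54% of all windows. AP-1 was found in 4 (7.04% of all windows), ATGCAAA in 2 (4.27%), GGAATG (TEAD) in 3 (13.5%), CCGGAA (Ets) in 4 (18.9%), GGGCGG in 12 (46.7%) and the E-box CANNTG in 18 (69.0%). A match describes letters and not binding, and some of the matches overlap.

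An end peak, meaning a listed peak within 1 kb of either end of the gene body, was listed for 23 of the 32 genes in the MEF library, for 21 in the intermediate, for 21 in iPSC and for 23 in ESC. Among coding genes as a whole the share with one was 64.3% for MEF, 62.3% for the intermediate, 65.3% for iPSC and 67.2% for ESC. Of the 32 genes, 19 had one in all 4 lists (53.8% of coding genes) and 7 in none (25% of coding genes). No gene gained an end peak in the intermediate over MEF, against 5.64% of coding genes, and 2 lost one, Itga9 and Itgb7, against 7.64%.

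**Figure D2:**
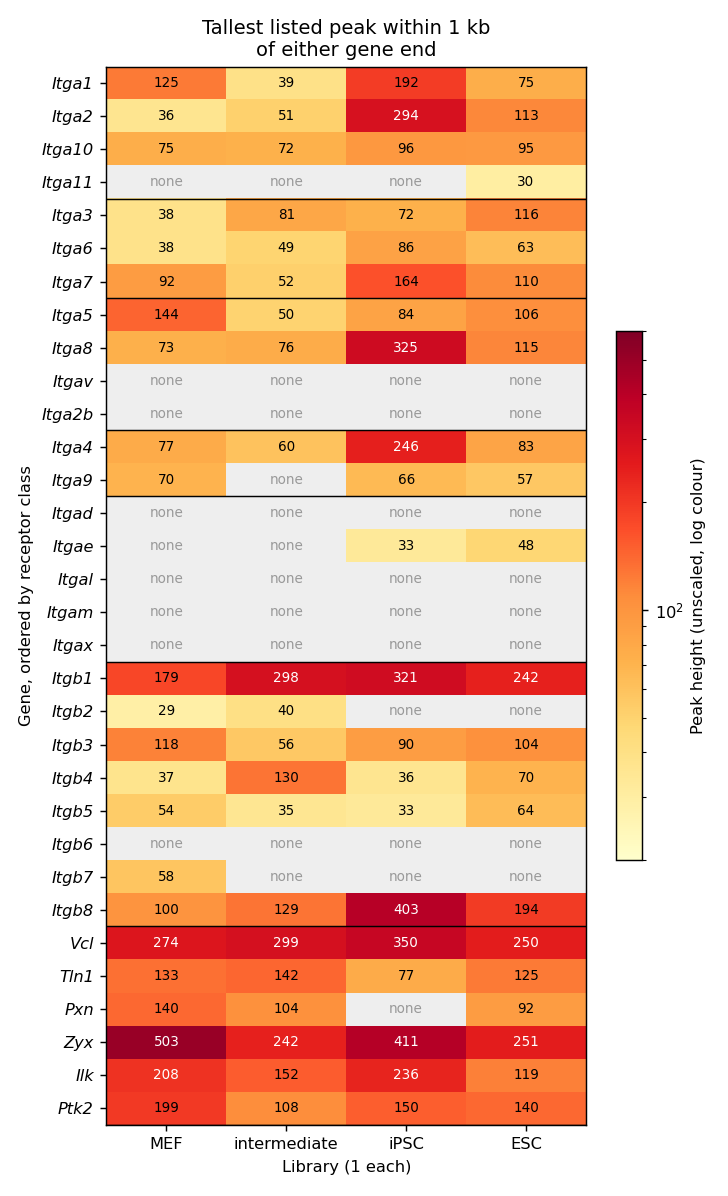
Height of the tallest listed peak within 1 kb of either gene end for each gene (rows, ordered by receptor class) in each library (columns), with no peak shown in grey. Colour follows the unscaled height on a log scale, and heights are not comparable between columns; 19 rows carry a peak in all 4 columns.

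All 4 collagen-binding alpha chains had an end peak in at least 1 library. Itga1 had end-peak heights of 125 for MEF, 39 for the intermediate, 192 for iPSC and 75 for ESC. Itga2, which encodes the collagen receptor of platelets and epithelia, had 36, 51, 294 and 113. Itga10 had 75, 72, 96 and 95, all at the right end of the gene, and none at its listed start. Itga11 was without an end peak in MEF, the intermediate and iPSC and had one of 30 in ESC, and with Itgae it makes the 2 genes that gained an end peak in ESC over MEF, against 7.37% of coding genes. The ESC peak lay at chr9:62677871-62678360, just downstream of the sequence printed above. Further inside Itga11, regions at chr9:62684201-62684850, chr9:62724181-62724730 and chr9:62732281-62733180 had MEF heights of 34, 36 and 46 and no peak elsewhere.

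The laminin-binding chains Itga3, Itga6 and Itga7 had end peaks in every library. Itga3 had heights of 38, 81, 72 and 116 in MEF, the intermediate, iPSC and ESC, and Itga6, the laminin receptor chain of epithelial stem cells and hemidesmosomes, had 38, 49, 86 and 63. At Itga6 4 regions were gained and 2 lost in the intermediate. At Itga3 7 were gained and 6 lost, but among regions nearest to Itga3 itself 1 was gained and 5 lost, and within 50 kb 12 and 23, so the direction there depends on the neighbouring genes, Pdk2 among them. Itga7, the laminin receptor chain of muscle, had end-peak heights of 92, 52, 164 and 110. Its window differed from the other laminin receptors in the number of regions, with 12 lost and 1 gained. A region at chr10:128968161-128969060, 9.88 kb beyond the gene and nearer to Mettl7b, had heights of 139 in MEF and 36 in the intermediate and no peak in iPSC or ESC.

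Of the chains that bind the RGD motif, Itga5 and Itga8 had an end peak in all 4 lists and Itgav and Itga2b in none. Itga5, the alpha chain of the fibronectin receptor, had heights of 144 for MEF, 50 for the intermediate, 84 for iPSC and 106 for ESC. The stretch of adjoining peaks at its start was 2490 bp wide in MEF and 1200, 1230 and 1180 bp in the other libraries. The tallest region lost in the intermediate at any of the genes lay within Itga5 at chr15:103358281-103359591, with 211 for MEF, no peak for the intermediate, 38 for iPSC and 45 for ESC. A second Itga5 region, at chr15:103377831-103379460 and 11.0 kb from the gene, had 163 in MEF and no peak in any other library. It was the third tallest of those lost. Itga8 had end peaks of 73, 76, 325 and 115.

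Itgav, the alpha chain of vitronectin receptors, had peaks at its listed start in every library, as shown above, but the listed gene body begins farther out and no peak lay within 1 kb of its ends. Upstream of Itgav, neighbouring regions carried peaks in different libraries. The region at chr2:83713231-83715160, 7.14 kb from the gene, had 161 for MEF, none for the intermediate, 125 for iPSC and 63 for ESC. The next one, at chr2:83718051-83719070 and 3.23 kb away, had none for MEF, 157 for the intermediate, 113 for iPSC and 57 for ESC. The first is the fourth tallest region lost and the other the fourth tallest gained. Within the gene, chr2:83744221-83745280 had 113 in MEF alone and chr2:83734891-83735520 had 100 in the intermediate alone. Itga2b, the platelet integrin chain of megakaryocytes, had no end peak, and none of 4 other megakaryocyte genes (among them Gp1ba, Gp9 and Pf4) had one in any library. Its window nevertheless held a region at chr11:102466611-102468030 with heights of 244, 57, 76 and 117, inside the gene body.

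Itga4 and Itga9 form receptors for fibronectin variants, VCAM1 and tenascin. Itga4 had end peaks of 77, 60, 246 and 83, and 5 regions gained against 1 lost. The fifth tallest region gained at any of the genes lay 11.1 kb from it at chr2:79243141-79244320, with no peak for MEF, 156 for the intermediate, 27 for iPSC and none for ESC. Itga9 lost its end peak in the intermediate, with heights of 70 for MEF, none for the intermediate, 66 for iPSC and 57 for ESC at the left end, the gene start on the plus strand. The RefSeq promoter table lists another start, within the gene, which had no peak within 1 kb in any list. Itga9 also held the tallest region of all the genes in MEF and in ESC, at chr9:118674231-118675560 within the gene body, with 689, 232, 162 and 315. It had 20 regions lost and 6 gained, and 12 and 6 after joining of sub-peaks.

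The leukocyte alpha chains Itgad, Itgal, Itgam and Itgax had no end peak in any library. Itgae, whose product binds E-cadherin, was the exception, with no end peak in MEF or the intermediate, 33 in iPSC and 48 in ESC. It alone among the 32 genes gained an end peak in iPSC over MEF, that is 1 gene, against 7.32% of coding genes. Inside Itgae the intermediate alone had peaks of 129 at chr11:73117081-73117590, 85 at chr11:73133851-73134481 and 78 at chr11:73098761-73099351. The tallest intermediate peak in the gene, at chr11:73137261-73139040, had 121, 144, 117 and 104 and lay at an end of Haspin, a kinase gene within Itgae. Itgad had listed peaks only in MEF, over 2.36% of its window. Itgam had peaks over 1.91% of its window in MEF and none in the intermediate.

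Among the beta chains, Itgb1, Itgb3, Itgb4, Itgb5 and Itgb8 had end peaks in every library. Itgb8, whose product activates TGF-beta, had 100 for MEF, 129 for the intermediate, 403 for iPSC and 194 for ESC. Itgb3, the partner of Itgav and Itga2b, had 118, 56, 90 and 104, and Itgb5, another partner of Itgav, had 54, 35, 33 and 64. The tallest region gained at any of the genes lay 6.5 kb from Itgb3 at chr11:104600181-104601500, with no peak for MEF, 212 for the intermediate, 36 for iPSC and 90 for ESC. At Itgb5 the third tallest lay within the gene at chr16:33843691-33845590, with none for MEF, 159 for the intermediate, 47 for iPSC and 130 for ESC. In the opposite direction, chr11:104640771-104641510 within Itgb3 had 153 in MEF and no peak in any other library.

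The Itgb1 promoter was open in every library, and the tall regions that differed lay outside the gene. Regions 18.1 kb and 4.94 kb from it, at chr8:128666281-128667580 and chr8:128679721-128680710, had MEF heights of 166 and 158 and no peak in any other library. They are the second and the fifth tallest of the regions lost. On the other side, at chr8:128746201-128747460 and 12.6 kb from the gene, the second tallest region gained had no peak for MEF, 162 for the intermediate, 84 for iPSC and 75 for ESC. The peak at the gene start stood in all 4 lists, between these MEF-alone regions on the left and that gained region on the right. Other flanking regions had other patterns. On the left, chr8:128680961-128681361 had a peak of 27 in ESC alone. On the right, chr8:128753421-128754180 had 27 in iPSC and 60 in ESC and no peak in MEF or the intermediate.

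Itgb4, the hemidesmosome chain that pairs with Itga6 in epithelia, had end peaks of 37 for MEF, 130 for the intermediate, 36 for iPSC and 70 for ESC. Adjoining peaks at the start of Itgb4 formed a stretch of 920 bp in MEF, 2590 bp in the intermediate, 680 bp in iPSC and 1090 bp in ESC, widest in the intermediate. It had the most regions gained, 19, against 7 lost, but the counts were 4 and 4 after joining of sub-peaks. A region at chr11:115962731-115963801 with a peak of 118 in the intermediate alone was nearer to Sap30bp than to Itgb4. By bases, peaks covered 20.8% of the Itgb4 window for MEF, 25.5% for the intermediate, 5.61% for iPSC and 13.4% for ESC. Itgb6, the epithelial partner of Itgav, had no end peak, but within the gene it had regions open in the intermediate and both pluripotent libraries and closed in MEF. One, at chr2:60693261-60695200, had 107 in the intermediate, 117 for iPSC and 47 for ESC, and another, at chr2:60692161-60692920, had 85, 113 and 72. In contrast, chr2:60703221-60704070 had 34 in MEF and 147 in the intermediate only.

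Itgb2 and Itgb7 encode the beta chains of leukocyte integrins, and both had fewer end peaks in pluripotent cells than in MEF. Itgb2 had 29 in MEF at its left end and 40 in the intermediate at its right end, and none in iPSC or ESC. Itgb7 had 58 in MEF at the right end of the gene and none elsewhere, although its listed start had peaks within 1 kb, of 58 in MEF, 34 in the intermediate and 53 in ESC, and none in iPSC. With Pxn, these 2 genes make up the 3 that lost an end peak in iPSC (6.29% of coding genes), and they are the 2 that did so in ESC (4.50%). At Itgb2 18 regions were lost and 3 gained, or 9 and 1 after joining. The regions at chr10:77531521-77532360 and chr10:77570121-77570820 had 95 and 80 in MEF alone. Of 8 leukocyte markers, 5 had an end peak in MEF and 2 in each other library. Spi1 and Cd68 had one in every list, and Csf1r and Tyrobp had MEF heights of 24 and 29 and none elsewhere. Ptprc, Adgre1 and Cd3e, the defining markers of leukocytes, macrophages and T cells, had none in any list. The part of such cells in the Itgb2 result was not tested.

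The 6 plaque genes had end peaks in every library, except Pxn in iPSC. Vcl, which encodes the actin linker vinculin, and Zyx, which encodes zyxin, a protein that gathers at adhesions under tension, had their peaks as shown with the sequences. Zyx had the tallest end peak of the 32 genes within the MEF, the iPSC and the ESC list, by 1 over Vcl in ESC (251 against 250). Tln1, the talin gene, had 133, 142, 77 and 125 at an end it shares with Creb3. Ilk, integrin-linked kinase, had 201, 152, 198 and 119 at its left end, which it shares with Rrp8. At its right end, near those of Taf10 and Tpp1, it had 208, 45, 236 and 18 as deposited. After joining of sub-peaks the tallest stretch at this right end had 208, 438, 236 and 217, so the low values depend on how peaks were divided. Ptk2, focal adhesion kinase, had 199, 108, 150 and 140. Pxn, which encodes paxillin, had 140 for MEF, 104 for the intermediate, none for iPSC and 92 for ESC, and its left end lies near that of Sirt4. Pxn and Itga11 are the 2 genes with an end peak in ESC and none in iPSC (4.56% of coding genes), and none had the reverse (2.72%).

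Inside the windows of the plaque genes, MEF had many peaks with no counterpart in the intermediate. Of their 176 regions 132 were open in MEF (75.0%, against 48.9% near coding genes). In the intermediate 96 were lost (54.5%, against 36.5% near coding genes) and 25 gained (14.2%, against 25.5%). Open in MEF alone were 93, or 52.8% (Wilson 95% interval 45.5 to 60.1), against 32.8%. Of the plaque regions open in MEF, 27.3% (20.4 to 35.4) were kept in the intermediate, against 25.3% near coding genes, which the interval includes. Intervals cover counting error over regions only, and neighbouring regions are not independent. For the beta chains 82 of 200 regions, or 41.0% (34.4 to 47.9), were open in MEF alone, and for the alpha chains 111 of 313, or 35.5% (30.4 to 40.9), an interval that includes the background of 32.8%. After joining of sub-peaks the shares in MEF alone were 36.0% (27.3 to 45.8) for 100 plaque regions, 33.8% for beta chains and 25.0% for alpha chains, against 25.0% near coding genes. Pxn held 60 of the 176 plaque regions and 31 of the 93 in MEF alone, and without Pxn, a step added after seeing the data, the share was 53.4%, or 39.2% after joining. At Pxn, regions at chr5:115514461-115515381 and chr5:115531601-115532271 within the gene had 63 and 60 in MEF alone. At Zyx, by contrast, chr6:42356821-42357781 had 24 in MEF, 240 in the intermediate and none in iPSC or ESC, within 1 kb of an end of the neighbouring gene Epha1. At Ilk, a region at chr7:105738581-105739670 inside the gene had 284, 109, 104 and 62.

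**Figure D3:**
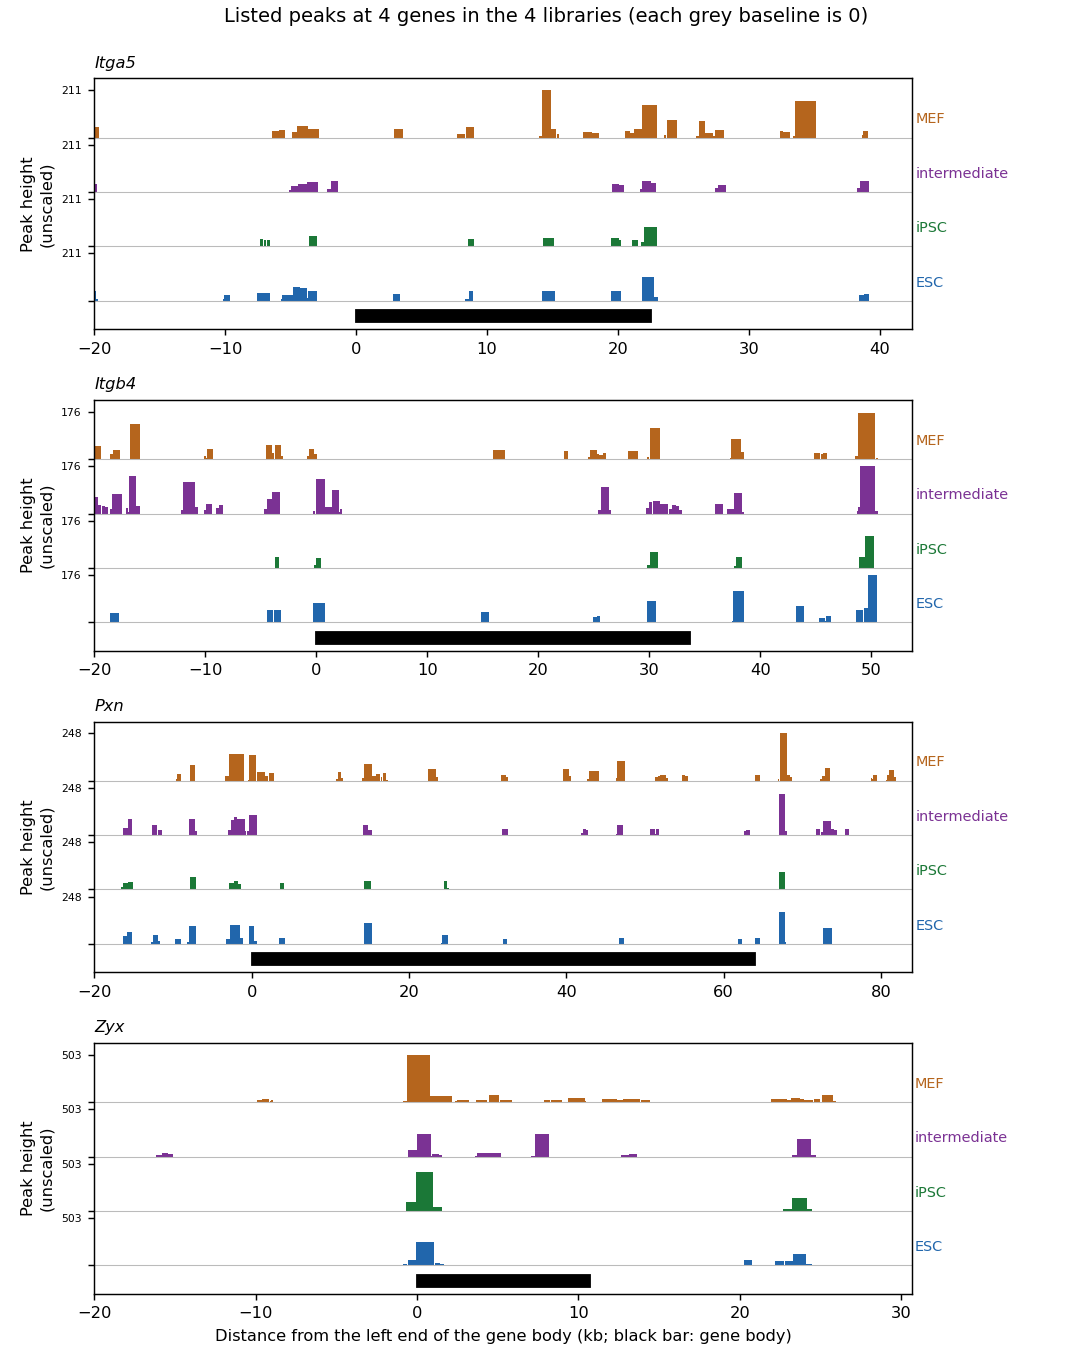
Listed peaks at Itga5, Itgb4, Pxn and Zyx in the 4 libraries, drawn by distance from the left end of the gene body (horizontal axis, kb) with unscaled peak height (vertical axis, 1 scale per gene). Black bars are gene bodies. At Itga5 the peak of 211 lies within the gene body in MEF, with no peak at that place in the intermediate, and at Zyx the peak of 240 in the intermediate lies near the right end of the gene.

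Measured in bases, which does not depend on how stretches were divided, listed peaks covered 8.26% of the windows of the 32 genes for MEF, 5.77% for the intermediate, 4.46% for iPSC and 5.58% for ESC. The windows of all coding genes were covered to 4.15%, 3.66%, 3.63% and 3.59%. The 32 genes were thus above coding genes in all 4 libraries, by most in MEF. The windows of the plaque genes were covered to 12.9% for MEF, 7.72% for the intermediate, 4.64% for iPSC and 6.62% for ESC. Those of the beta chains were covered to 10.3%, 8.22%, 4.76% and 6.77%. RGD-binding alpha chains had 9.40%, 5.01%, 5.57% and 6.05%, and laminin-binding chains 10.9%, 8.74%, 7.52% and 9.37%. Collagen-binding chains, at 4.31%, 4.07%, 3.96% and 4.87%, were slightly above coding genes in each library. Leukocyte alpha chains, at 3.73%, 2.37%, 1.55% and 2.48%, were below coding genes in each. Itga4 and Itga9 together, at 3.05%, 2.09%, 3.70% and 2.54%, were below them except in iPSC.

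The genes with the highest covered share in MEF were Zyx, Itga5 and Pxn. Zyx had 31.5% of its window under peaks for MEF, 16.3% for the intermediate, 7.82% for iPSC and 10.7% for ESC. Itga5 had 26.9%, 11.2%, 8.26% and 15.1%, and Pxn had 24.3%, 16.1%, 6.34% and 13.7%. In all 3 genes MEF was highest and iPSC lowest. Itgb7 had 19.4%, 15.6%, 15.3% and 27.0%, highest in ESC and lowest in iPSC, and Rarg lies within its window. More bases were covered in MEF than in the intermediate at 21 genes, fewer at 10, and equally many at Itgax, which had none. Over all coding genes the shares were 50.1% and 39.0%.

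**Figure D4:**
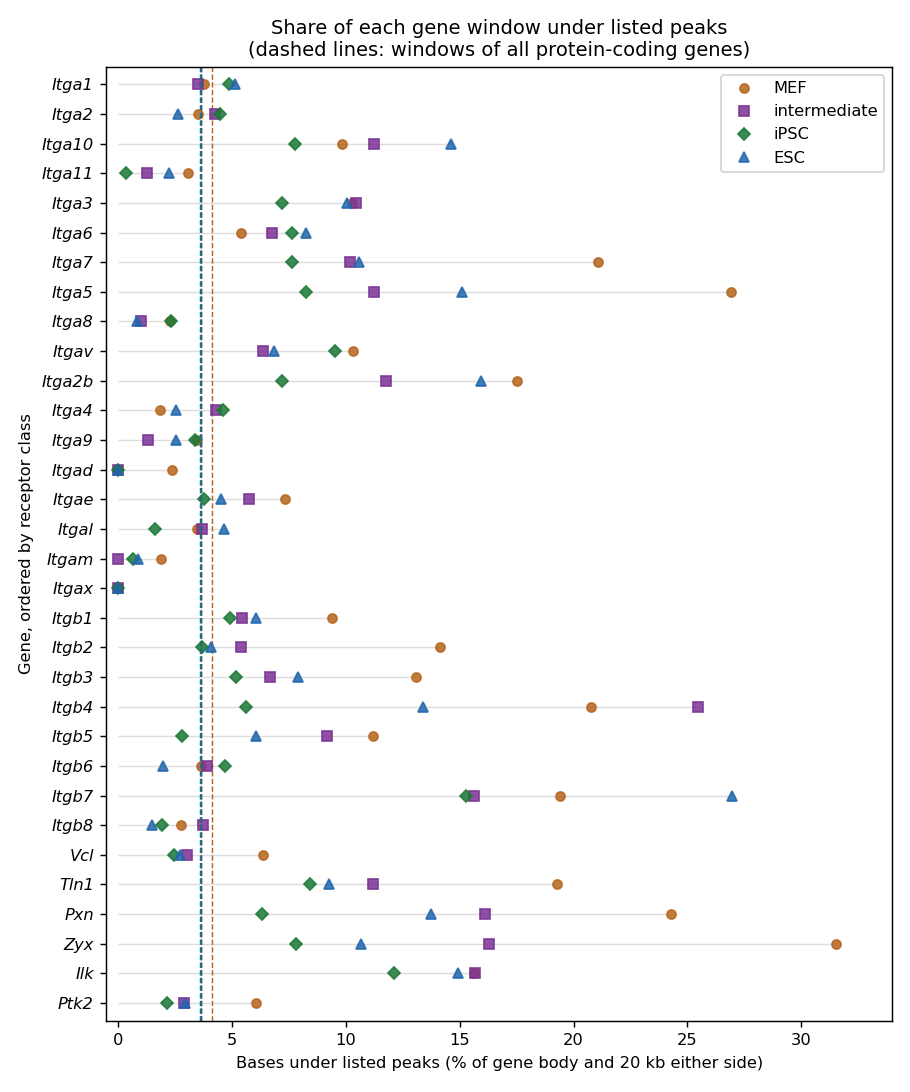
Share of each gene window (gene body and 20 kb on either side) under listed peaks, in percent, for each gene and library. Dashed lines give the windows of all protein-coding genes, at 4.15% in MEF and 3.59% to 3.66% in the other libraries. Zyx, Itga5 and Pxn stand farthest to the right in MEF, at 31.5%, 26.9% and 24.3%.

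Region by region, the 32 genes had 430 of 689 regions open in MEF (62.4%, Wilson 95% interval 58.7 to 65.9), against 48.9% of all regions within 20 kb of a coding gene. In the intermediate 252 were open, in iPSC 190 and in ESC 221. Against MEF, 315 regions were lost in the intermediate, or 45.7% (42.0 to 49.5), where 36.5% of regions near coding genes and 35.8% of all regions were lost. Gained regions numbered 137, or 19.9%, where 25.5% were gained near coding genes and 25.1% among all regions. Regions open in MEF alone numbered 286, or 41.5% (37.9 to 45.2), against 32.8% near coding genes and 32.4% of all regions. Regions open in the intermediate alone numbered 105, or 15.2%, against 18.8% and 18.2%. Open in all 4 libraries were 77, or 11.2%, against 9.06% and 7.03%. After joining of sub-peaks the genes had 434 regions, with 157 lost (36.2%, against 30.3% near coding genes), 81 gained (18.7%, against 24.6%) and 30.2% in MEF alone (against 25.0%), so each of these shares kept its side of the background.

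For the share of MEF regions that stayed open in the intermediate, the interval included the background both as deposited and after joining. Of the regions open in MEF, 26.7% (22.8 to 31.1) were also open in the intermediate, against 25.3% near coding genes. After joining, the share was 42.5% (36.8 to 48.4), against 37.6%. In iPSC the share was 22.6% (18.9 to 26.7) against 24.8%, and in ESC 26.7% against 26.0%. By bases, 38.3% of what was covered in MEF was covered in the intermediate, against 37.9% for coding genes. The larger share of lost regions at these genes thus stood beside a larger share of regions open in MEF. Regions within 1 kb of a gene end were kept more often than others, 53 of 88 (60.2%, 49.8 to 69.8) against 62 of 342 (18.1%, 14.4 to 22.6), and near coding genes the same shares were 64.9% and 15.4%. Lost regions had a median MEF height of 30 and a median merged width of 471 bp, and kept regions 78 and 1410 bp. Near coding genes the values were 29 and 441 bp for lost and 73 and 1410 bp for kept regions. A kept region merges peaks of MEF and of the intermediate, so it is wider partly by construction.

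Few regions that MEF did not share with the pluripotent cells were open in the intermediate. Of 306 regions with a MEF peak and none in iPSC or ESC, 20 were open in the intermediate (6.54%, 4.27 to 9.88), against 5.65% near coding genes. After joining the share was 13.2% (8.74 to 19.6), against 9.57%, and for single peaks it was 11.9%. Of 45 regions with a peak in both iPSC and ESC and none in MEF, 21 were open there (46.7%, 32.9 to 60.9), against 40.3% near coding genes. Each of the intervals includes the background share beside it. By class, the intermediate had a peak in 9 of 13 such pluripotent regions at beta chains, 11 of 27 at alpha chains and 1 of 5 at plaque genes. Among the alpha chains the counts were 0 of 7 for the laminin-binding and 0 of 2 for the leukocyte chains, 2 of 4 for the collagen-binding, 4 of 7 for the RGD-binding, and 5 of 7 for Itga4 and Itga9. The open regions of beta chains included those at Itgb1, Itgb3, Itgb5 and Itgb6 described above.

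More regions were lost than gained at 24 genes, more gained than lost at Itga3, Itga4, Itga6, Itgal and Itgb4, and equally many at 3. At Itga4 and Itga6 gains also exceeded losses after joining and by nearest gene. At Itga3 the nearest-gene counts reversed, as given above, at Itgal joining left 2 lost and 2 gained, and at Itgb4 joining with nearest-gene assignment left 3 lost and 1 gained. Among all coding genes the shares were 46.6% and 32.8%. After joining, the counts were 20, 4 and 8, and 40.9% of coding genes had more lost and 32.9% more gained. With lists of equal length the counts were 20, 9 and 3, against 41.9% and 36.2% of coding genes. Pxn had most regions lost, 33, followed by Itgb5 with 21, Itga9 with 20, Itgb2 with 18 and Itga5 with 17, the last level with Itgb3. After joining these were 9, 11, 12, 9, 7 and 10, and Pxn no longer led. The lengths of these genes, in the same order, were 64.0, 120, 294, 35.4, 22.5 and 62.5 kb. Per 10 kb of window they lost 3.17, 1.32, 0.598, 2.39, 2.72 and 1.66 regions, while Zyx lost 2.96 and Tln1 2.25. The order thus depends on gene length. Most gained were Itgb4 with 19, Itgb5 with 13, Pxn with 12, Itgae with 10 and Itgb6 with 8, and after joining 4, 9, 4, 4 and 7. By count Pxn and Itgb5 were thus high in both directions, and they had 60 and 42 regions in all. Counting only regions nearest to the gene itself, Pxn had 23 lost and 7 gained and Itgb4 6 lost and 8 gained.

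**Figure D5:**
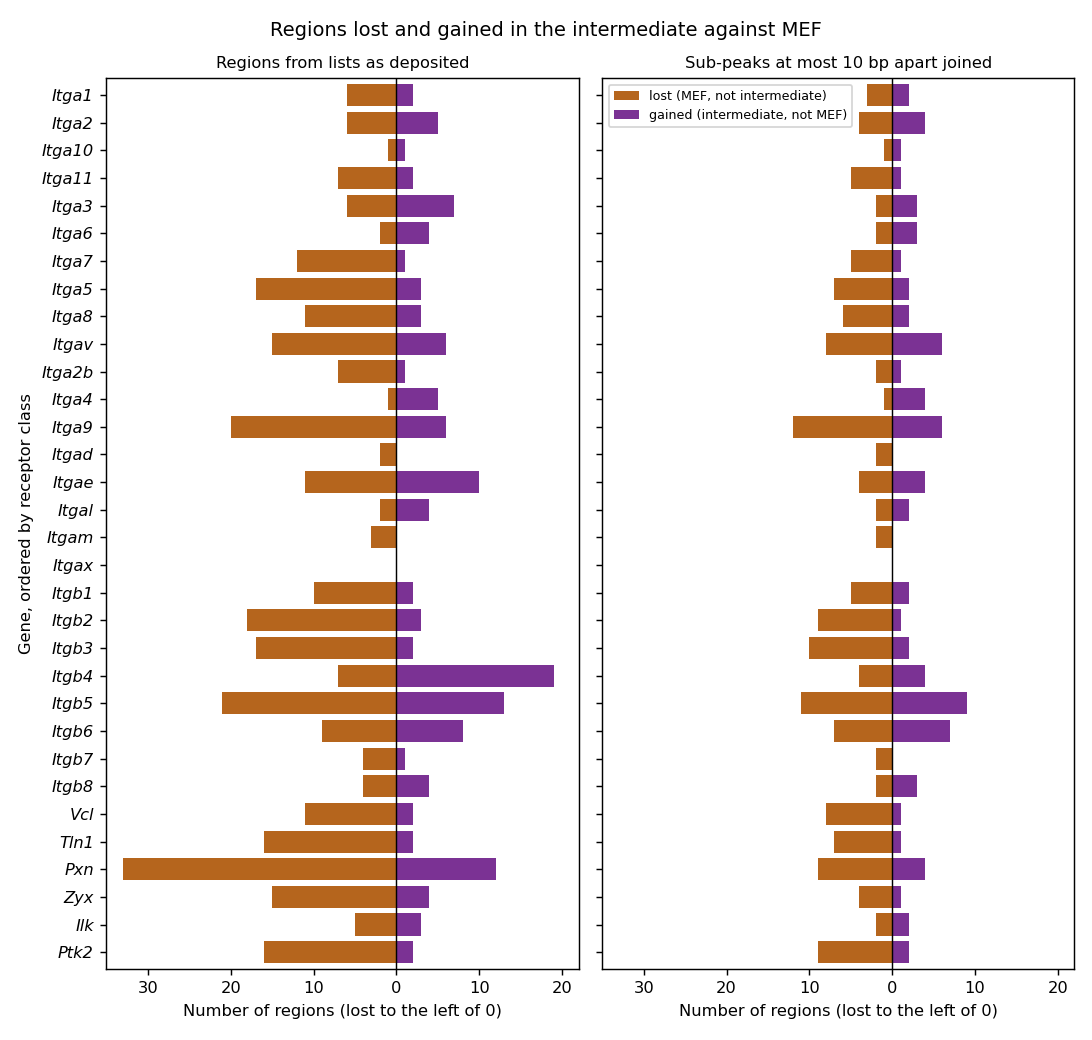
Number of regions lost (MEF and not intermediate, left of 0) and gained (intermediate and not MEF, right of 0) for each gene, from the lists as deposited and after joining sub-peaks at most 10 bp apart. Pxn leads the losses at 33 and Itgb4 the gains at 19 as deposited, and joining brings them to 9 and 4.

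Other genes of the adhesion plaque and the genes of integrin ligands gave the frame for these values. Of 34 further plaque genes, 31 had one or more end peaks listed for MEF, 29 for the intermediate, 29 for iPSC and 30 for ESC. The shares of coding genes with an end peak were 64.3%, 62.3%, 65.3% and 67.2%. Fermt3, the kindlin of blood cells, gained one in the intermediate. Tln2, the second talin gene, Src, the kinase that acts with Ptk2, and Tns2, a tensin, lost one, so 1 of 34 gained and 3 of 34 lost, against 5.64% and 7.64% of coding genes. The windows of the 34 genes held 1183 regions, of which 592 were lost (50.0%, against 36.5% near coding genes) and 267 gained (22.6%, against 25.5%). Of their MEF regions 21.0% were kept, against 25.3% near coding genes and 26.7% for the 32 genes. Peaks covered 9.83% of these windows for MEF, 6.69% for the intermediate, 5.56% for iPSC and 5.36% for ESC, so a high MEF share was not limited to the 32 genes. Of 22 ligand genes, 20 were marked so for MEF, 18 for the intermediate and 20 for each of iPSC and ESC. Lama4, a laminin chain, gained one in the intermediate, while Lamb1, another laminin chain, and the matrix genes Tnc and Postn lost one, again 1 gained and 3 lost, here of 22.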

How the data were processed

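ATAC-seq peak lists of 4 mouse libraries, 1 per group, were analysed. Each list that the authors deposited, on mm10 (GRCm38), gives per peak its position, its summit and a height, per the file headers. This unscaled signal is at least 5, and the depth is unknown. Tools named in the submitters' processing notes, with no roles, are Bowtie2, CASAVA 1.8.2, MACS 1.4.2-1 and Picard. How peaks were called and divided is not given in the sources used here.

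Peaks of the X chromosome and 19 autosomes were merged where at least 1 bp overlapped, and open means that a library had a peak in the merged region. A closed region is 1 without a listed peak. Gained means open and closed in MEF, and lost the opposite. Gene bodies came from RefSeq (GRCm38.p6). Windows were 20 kb around gene bodies and 1 kb around gene ends, and 76 of the 689 regions lay within 1 kb of an end of another coding gene, while 507 had a member as the nearest coding gene. Intervals are Wilson 95% intervals. Named with full values were genes that gained or lost an end peak, genes whose end peaks differ between iPSC and ESC, the 5 genes with most regions lost and gained, and the 5 tallest regions lost and gained. All others were named after their values were seen, apart from the end peaks given for every gene. The genes and lists were chosen with earlier results of these data known. Alternatives were a minimum height of 10, lists of equal length, the taller 50% of peaks, joined sub-peaks, end windows of 2.5 kb, listed start sites, windows of 0 or 50 kb, nearest-gene assignment and single peaks with 50% overlap. Steps were tested on simulated lists (Python 3.11.15, pandas 2.3.3, numpy 2.4.6). Some genes of the marker lists are not reported here by name.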

Additional observations from a re-analysis of the deposited data

How the results depend on the processing

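No paired analysis was possible because each group has 1 library and no replicate numbers. Of 123 alternative values of the main results, 83 stayed within their limits and 40 moved; of 576 counts per gene, 363 stayed within 1.5 times. Start sites alone gave 15 end peaks in MEF, with 1 gained and 0 lost in the intermediate, 1 lost in iPSC, and 1 gained and 0 lost in ESC, over the 22 genes with a listed start. The taller 50% of each list gave 1 end peak gained in the intermediate, 0 gained in iPSC, and 1 gained and 1 lost in ESC. The 2.5 kb end window gave 0 gained and 1 lost in iPSC, and 1 gained and 1 lost in ESC.

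Regions gained and lost numbered 68 and 169 with the taller 50%, 81 and 157 after joining, 80 and 204 over gene bodies alone, and 59 and 133 after joining with nearest-gene assignment, a setting added after seeing the data; the 50 kb window gave 513 lost. The share of MEF-only regions open in the intermediate was 13.2% after joining, 11.9% for single peaks and 10.2% after joining with nearest-gene assignment. The share open in MEF alone was 37.1% with the taller 50% (28.0% near coding genes), 36.5% with lists of equal length (28.3%) and 30.2% after joining (25.0%). It was 46.2% with nearest-gene assignment and 35.4% for both of the joined and nearest settings. For single peaks the value was 18.6%, or 318 of 1708, where 1708 counts the peaks of all lists and not merged regions. A site shared by several lists is counted there more than once, so this value cannot be set beside the shares of regions. Of the 5 genes with most regions lost, 3 remained among the 5 with the taller 50%, after joining, over gene bodies and with 50 kb, and 2 after joining with nearest-gene assignment. Of the 5 with most gained, 3 remained with the taller 50%, 2 after joining, and 2 after joining with nearest-gene assignment. Fewer peaks or fewer windows enter most of these settings by construction. Unknown depth limits every statement that a site lacked a peak.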
